A study of Mus musculus with 12 samples.

Results

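Myc and 34 ribosome biogenesis factors were examined on 12 microarrays of primed mouse CD8 T cells. The 35 genes were taken by symbol from the gene-level table, out of 39462 genes tested. The brightest transcript cluster stood for any symbol with several. OT-I cells carry one transgenic T cell receptor that recognises an ovalbumin peptide on a class I molecule. OT-I splenocytes were stimulated in culture for 4 days with the Y3 peptide, known as a weaker altered form of the antigen, or with the N4 peptide, the strong agonist form, and each was done with or without corticosteroid. The 4 groups were Y3 plus corticosteroid, Y3, N4 plus corticosteroid and N4, with 3 arrays each. Every group shared the OT-I receptor, the medium with serum and the 4 days of culture, and no unstimulated group was among the samples. No label names the steroid or states its dose or those of the peptides. The arrays of a group were labelled as biological replicates 1 to 3, but not whether they came from separate mice or cultures, and p-values therefore describe only how far these arrays differ, technical differences included. Values below are log2 signals, and 3 values given together are replicates 1, 2 and 3.

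Myc is a transcription factor that is induced when a T cell receptor is engaged and that drives cell growth, in large part by raising the output of ribosomes. Ribosomes are built in the nucleolus: RNA polymerase I transcribes the ribosomal RNA precursor, small nucleolar ribonucleoproteins (snoRNPs) guide its chemical modification and early cleavage, and large sets of assembly factors fold and trim it into the 40S and 60S subunits. Many genes of these steps are known targets of Myc, and an activated T cell enlarges its nucleoli before it divides.

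The cell type label was checked against marker genes. All 8 T cell markers, among them Cd3e, Cd8a and Cd8b1, lay above the background line on all 12 arrays, with medians between 14.45 and 15.65. That line was the brightest background control of each array. Of the genes listed for other cells, fewer lay above it on all 3 arrays of a group. They were 1 of 10 B cell genes (Cd79b), 1 of 12 macrophage and dendritic cell genes (Cd68) and 0 of 8 erythroid and platelet genes. So did 2 of 6 NK cell genes (Nkg7 and Eomes) and 3 of 6 CD4 and regulatory T cell genes (Zbtb7b, Ctla4 and Il2ra). The other genes of both these lists, Ncr1, Cd4 and Foxp3 among them, did not. Whether the genes above the line were expressed by the OT-I cells or by other cells was not tested. All 35 members lay above the line on every array. Against a stricter line, the 95th percentile of the negative controls, 19 members lay above it on all 12 arrays, 14 on some, and Polr1e and Grwd1 on none. In RNA of a whole culture, fewer cells of a type and less RNA per cell cannot be told apart.

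Promoter sequence was read for the members because Myc and Max bind the E-box CACGTG, which reads the same on both strands. RefSeq windows of GRCm38.p6 from 250 bases before to 50 after the annotated start matched 30 of the 35 members, all but Myc, Npm1, Fbl, Bop1 and Rrp12. The E-box was found in 8 of the 30 (26.7%), against 8.09% of 27025 genes with a window and 12.3% of those above the background line here. The shares were 21.9% of 32 other small subunit genes, 18.4% of 38 other 60S genes and 10.7% of 56 ribosomal protein genes. The sites, in capitals with up to 12 bases on each side, are shown because they are what these 8 members of different roles share.
Nop2, chr6:125131811-125131840, + strand: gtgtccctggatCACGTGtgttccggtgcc
Pes1, chr11:3963965-3963994, + strand: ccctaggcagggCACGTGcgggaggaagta
Wdr43, chr17:71616220-71616249, + strand: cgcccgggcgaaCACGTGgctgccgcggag
Tsr1, chr11:74898092-74898121, + strand: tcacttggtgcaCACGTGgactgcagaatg
Ltv1, chr10:13193092-13193121, - strand: gccctgtggaccCACGTGtggagctgccgg
Grwd1, chr7:45830740-45830767, - strand: gggccggagtcgCACGTGtgaaaccgga
Utp20, chr10:88826765-88826789, - strand: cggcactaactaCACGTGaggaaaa
Mybbp1a, chr11:72441355-72441376, + strand: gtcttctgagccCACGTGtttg

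Without corticosteroid, Myc had the largest difference between the peptides of the 35 members. Its signal was 13.39, 12.74 and 13.48 on the Y3 arrays, against 14.74, 14.02 and 14.33 on the N4 arrays. Every Y3 array lay below every N4 array, and Y3 was lower under each of the 3 replicate numbers. The log2 difference was -1.16 ± 0.32 (limma SE, 95% interval -1.87 to -0.45), a 2.23-fold lower signal in Y3-primed cells. Without a term for the replicate number it did not pass the threshold (limma adjusted p = 0.307 over all genes). With the replicate number as a block, where each Y3 array is in effect set against the N4 array of the same number, Myc fell in Y3-primed cells (-1.16 ± 0.19, adjusted p = 0.0151). That blocked call was lost when N4 replicate 1 or 2, or any of the 3 Y3 arrays, was left out (adjusted p up to 0.0782), although the difference stayed between -1.26 and -1.08.

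With corticosteroid in both cultures, the Myc signal was 13.53, 13.12 and 13.92 on the Y3 arrays, against 14.92, 13.84 and 14.15 on the N4 arrays. Y3 replicate 3 lay above N4 replicate 2, so the groups overlapped, while each replicate number again had the lower value in Y3. The difference of -0.78 ± 0.32 was a 1.72-fold lower signal in Y3 plus corticosteroid (limma adjusted p = 0.394, or 0.0403 with the replicate block). The blocked call remained only when the array left out was N4 replicate 3, N4 plus corticosteroid replicate 3 or Y3 plus corticosteroid replicate 3. Within the replicate numbers the difference was -1.39, -0.71 and -0.24. The steroid itself shifted Myc by 0.32 ± 0.32 in Y3-primed cells, with the higher value in Y3 plus corticosteroid under all 3 numbers, and by -0.06 ± 0.32 in N4-primed cells, where the arrays disagreed. Their 95% intervals, -0.39 to 1.03 and -0.77 to 0.65, leave room for changes of either sign. The difference between both steroid effects on Myc was 0.38 ± 0.45 and did not pass the test (unadjusted p = 0.421).

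**Figure D1:**
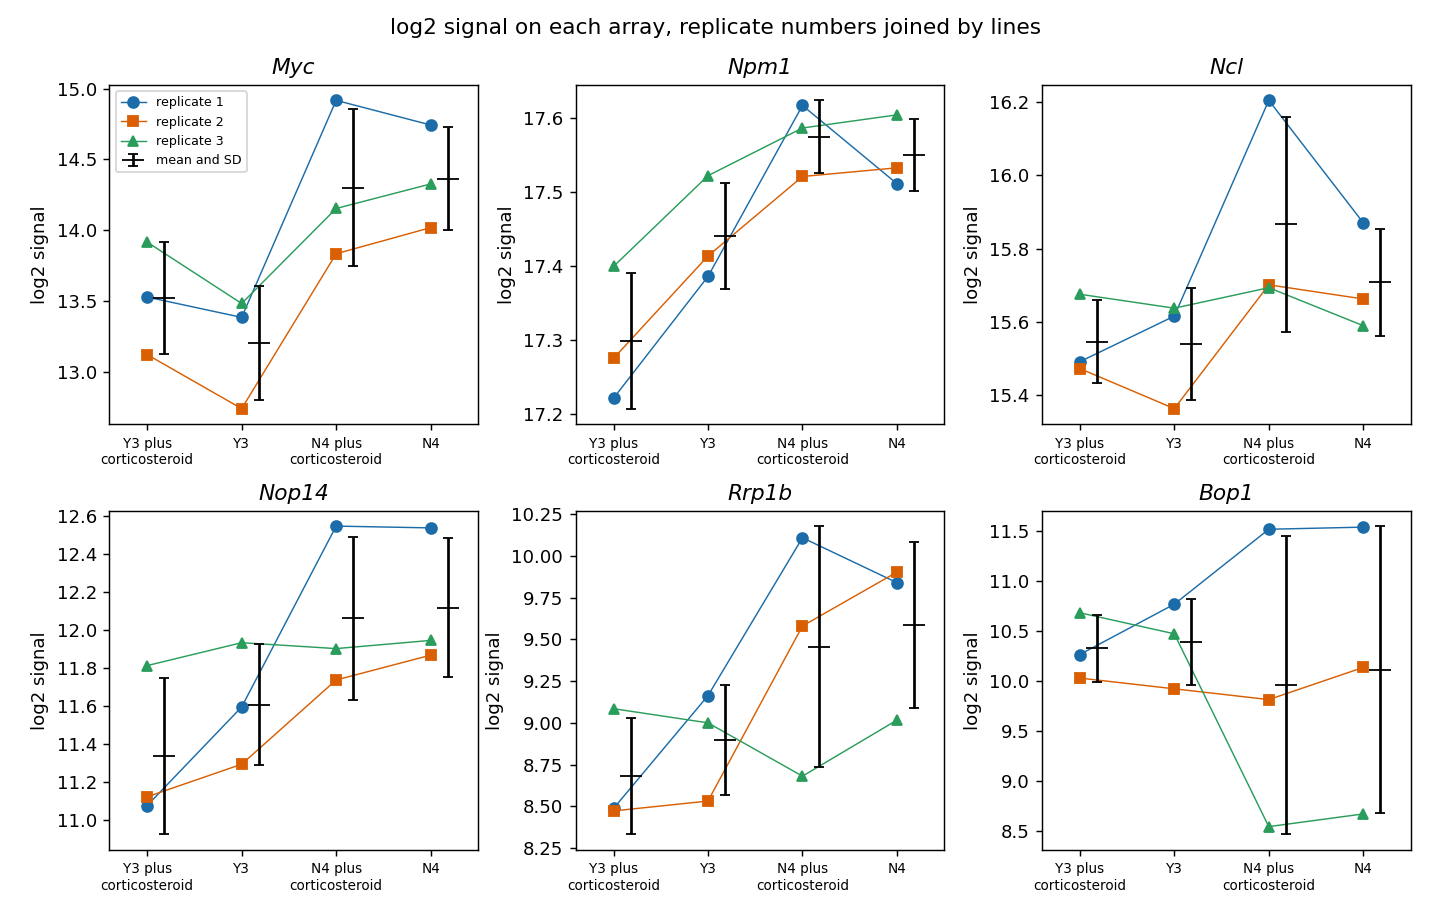
log2 signal (vertical axis) of Myc and 5 other members on each of the 12 arrays, by group along the horizontal axis, with lines joining the arrays of a replicate number and black bars for the mean and SD of 3 arrays. Myc lay lower on all 3 Y3 arrays (12.74 to 13.48) than on all 3 N4 arrays (14.02 to 14.74), whereas Bop1 spread over 8.68 to 11.54 within the N4 group alone.

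No other member passed the threshold in either peptide comparison. Without the block, 0 of 35 members passed in Y3 against N4, where 0.0304% of all genes did, and 0 of 35 passed with corticosteroid in both, where 0.256% did. With the block, Myc alone passed in each, which is 1 of 35 members against 2.94% and 6.53% of all genes. At an unadjusted p under 0.05 without the block, 1 member was counted in Y3 against N4 (8.57% of all genes) and 3 were counted with corticosteroid in both (11.1%). Genes above the background line in a group, as all members were, passed more often than all genes. Of 15768 such genes, 596 rose and 455 fell with the block in Y3 against N4, and 1211 rose and 1107 fell with corticosteroid in both. At an unadjusted limma p under 0.05 without the block, 2187 and 3137 of them were counted. The members' shares were not above those of all genes, nor above those of genes above the line. Non-overlap of the groups gave the same picture against all genes. Without corticosteroid 1 member, Myc, was lower on every Y3 array than on every N4 array (6.06% of all genes) and 0 were higher (5.24%). With corticosteroid in both, 2 members, Ncl and Npm1, were lower without overlap (8.59%) and 0 were higher (7.91%). T cell markers ran the other way: 7 of 8 had higher means in Y3 in each comparison, with medians of 0.46 without and 0.51 with corticosteroid, and with the block Cd3d and Cd8b1 rose in both and Cd3e in the second. The negative controls were higher in Y3 as well, their medians by 0.11 without and 0.20 with corticosteroid. The part of either in the members' differences was not tested.

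Nucleolin and nucleophosmin, encoded by Ncl and Npm1, are abundant nucleolar proteins that act in ribosomal RNA transcription, processing and particle export. Npm1 read 17.22, 17.28 and 17.40 in Y3 plus corticosteroid, 17.39, 17.41 and 17.52 in Y3, 17.62, 17.52 and 17.59 in N4 plus corticosteroid, and 17.51, 17.53 and 17.60 in N4. The 3 arrays of Y3 plus corticosteroid were the lowest under their own replicate numbers. The difference between the steroid-treated peptide groups was small but tight, -0.28 ± 0.07 (limma adjusted p = 0.163, or 0.0544 with the block). Without corticosteroid it was -0.11 ± 0.07 (adjusted p = 0.790). The steroid shifted Npm1 by -0.14 ± 0.07 in Y3-primed cells, downward under all 3 numbers, and by 0.03 ± 0.07 in N4-primed cells. Neither effect passed the test, nor did the difference between them (-0.17 ± 0.11, unadjusted p = 0.145).

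Ncl read 15.49, 15.47 and 15.67 in Y3 plus corticosteroid, 15.62, 15.36 and 15.64 in Y3, 16.21, 15.70 and 15.69 in N4 plus corticosteroid, and 15.87, 15.66 and 15.59 in N4. The value of 16.21 on N4 plus corticosteroid replicate 1 stood apart from all others. The peptide difference was -0.32 ± 0.15 with corticosteroid (limma adjusted p = 0.468) and -0.17 ± 0.15 without it (adjusted p = 0.860). The steroid effect in N4-primed cells, 0.16 ± 0.15, turned to -0.010 without that array, and the peptide difference with corticosteroid shrank to -0.15 (adjusted p = 0.882).

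Of the 3 RNA polymerase I subunits, Polr1a and Polr1b of the catalytic core and the accessory subunit Polr1e, 0 passed the test in either peptide comparison. Polr1b read 8.49, 8.15 and 9.16 in Y3 plus corticosteroid, 9.21, 8.06 and 8.85 in Y3, 10.16, 8.78 and 7.58 in N4 plus corticosteroid, and 9.89, 8.87 and 7.58 in N4. The N4 arrays spread more widely than the Y3 arrays and held both the highest and the lowest value. Differences of the 3 subunits ran from -0.07 to 0.29 in Y3 against N4, each with a standard error of 0.29 or more.

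The 6 snoRNP members were all lower on average in Y3 than in N4, with a median of -0.31 without corticosteroid and -0.37 with it, and 0 of 6 passed the test. Fbl, the methyltransferase of the box C/D particles, differed by -0.29 ± 0.39 without corticosteroid. Its scaffold partners Nop56 and Nop58 differed by -0.51 ± 0.60 and -0.43 ± 0.33. Nop58 was lower in Y3 under all 3 numbers without corticosteroid. With corticosteroid its difference was -0.71 ± 0.33 (limma adjusted p = 0.476, or 0.150 with the block). With 1 array left out, it passed only with the block and without Y3 plus corticosteroid replicate 3 (-1.03, adjusted p = 0.0213). Dkc1, the pseudouridine synthase of the box H/ACA particles, and Nolc1, a chaperone of both kinds of particle, differed by -0.08 ± 0.63 and -0.17 ± 0.83 without corticosteroid. Nolc1 ran from 9.58 to 12.79 over the 12 arrays, the widest range of any member.

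Of the 11 members that build the small subunit, 7 were lower and 4 higher on average in Y3 than in N4, in both the presence and the absence of corticosteroid. Nop14, a core factor of the small subunit processome, read 11.08, 11.12 and 11.81 in Y3 plus corticosteroid, 11.60, 11.29 and 11.93 in Y3, 12.55, 11.74 and 11.90 in N4 plus corticosteroid, and 12.54, 11.87 and 11.95 in N4. Y3 was the lower under every number, but under number 3 by only 0.01 without corticosteroid and 0.09 with it. The differences were -0.51 ± 0.28 and -0.73 ± 0.28 (limma adjusted p = 0.699 and 0.364 in the same order). Heatr1, Utp20, Rrp12 and Nat10, the last an acetyltransferase of the small subunit RNA, were the 4 with higher means in Y3, by 0.11 to 0.42 without corticosteroid.

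Wdr75, Ltv1 and Bysl entered through their steroid values. Wdr75, a subunit of the processome, read 10.43, 10.36 and 10.96 in Y3 plus corticosteroid, 11.09, 10.58 and 11.14 in Y3, 11.99, 10.89 and 10.63 in N4 plus corticosteroid, and 11.82, 11.12 and 10.90 in N4. In Y3-primed cells it was lower with corticosteroid under all 3 numbers (-0.35 ± 0.36). Ltv1, which acts on late 40S particles, read 10.38, 9.89 and 10.59 in Y3 plus corticosteroid, 11.02, 10.23 and 10.73 in Y3, 11.55, 10.57 and 10.12 in N4 plus corticosteroid, and 11.60, 10.91 and 10.43 in N4. It was the lower with corticosteroid in all 6 pairs, by means of -0.38 ± 0.40 in Y3-primed and -0.23 ± 0.40 in N4-primed cells. Bysl, another 40S factor, read 8.41, 7.74 and 8.46 in Y3 plus corticosteroid, 9.29, 8.25 and 9.13 in Y3, 10.16, 8.45 and 7.33 in N4 plus corticosteroid, and 10.09, 9.13 and 7.77 in N4. Its steroid differences were -0.69 ± 0.71 in Y3-primed and -0.35 ± 0.71 in N4-primed cells, with a spread over 2 log2 units within each N4 group. None of the 3 genes passed the test for the steroid.

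The 12 members of the large subunit pathway had a median of -0.32 in Y3 against N4 (8 lower, 4 higher) and -0.45 with corticosteroid in both (10 lower, 2 higher), with 0 of 12 past the test. Rrp1b, a nucleolar protein of the RRP1 family, read 8.49, 8.47 and 9.08 in Y3 plus corticosteroid, 9.16, 8.53 and 9.0 in Y3, 10.11, 9.58 and 8.68 in N4 plus corticosteroid, and 9.84, 9.90 and 9.02 in N4. Replicates 1 and 2 were high in both N4 groups. Without corticosteroid the numbers differed by -0.68, -1.37 and -0.02, for a mean of -0.69 ± 0.37 (limma adjusted p = 0.675). Gnl3, the GTPase nucleostemin, read 9.79, 9.70 and 10.86 in Y3 plus corticosteroid, 10.66, 10.08 and 10.77 in Y3, 11.90, 10.77 and 10.26 in N4 plus corticosteroid, and 11.30, 10.96 and 10.38 in N4. Its peptide difference with corticosteroid, -0.86 ± 0.44, was the most negative of the 35 members (adjusted p = 0.535), and under number 3 it ran the other way (0.61). The difference between its steroid effects was -0.48 ± 0.63 (unadjusted p = 0.462), and -0.017 without N4 plus corticosteroid replicate 1.

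Wdr12, Bop1 and Pes1 form one complex in 60S maturation. Wdr12 read 9.68, 9.67 and 10.02 in Y3 plus corticosteroid, 9.37, 9.37 and 9.75 in Y3, 9.72, 9.64 and 9.63 in N4 plus corticosteroid, and 9.63, 9.49 and 9.11 in N4. It was the only member with a higher value on the steroid array under all 3 numbers with both peptides, by 0.30 ± 0.16 in Y3-primed cells and 0.25 ± 0.16 in N4-primed cells, neither past the test (unadjusted p = 0.0878 and 0.135). Bop1 ran from 8.55 to 11.54 over the arrays and Pes1 from 12.07 to 13.28, and both were highest on replicate 1 and lowest on replicate 3 in each N4 group.

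**Figure D2:**
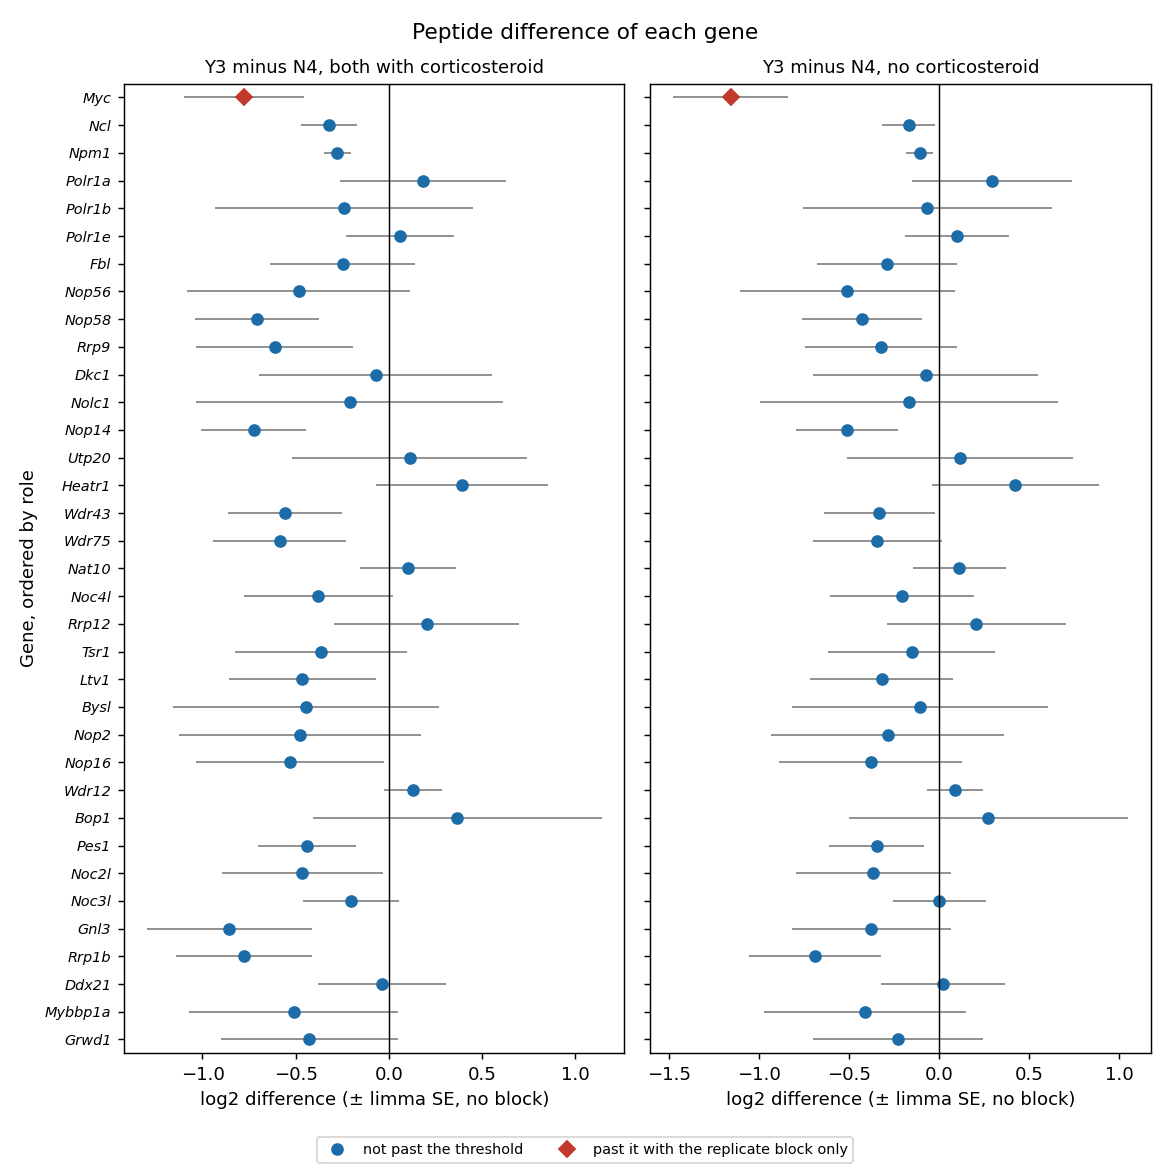
log2 difference of each of the 35 members (vertical axis, by role) between Y3 and N4, with corticosteroid in both (left) and without it (right), with bars for the limma standard error without the block. Myc, marked by a diamond, is the member past the threshold, with the replicate block only, at -0.78 and -1.16; most others lie to the left of 0 with bars that are long beside the difference.

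The members varied widely between arrays of one group, and they did so together. The median of the 35 was 10.38, 10.03 and 10.86 on the Y3 plus corticosteroid arrays and 10.80, 10.23 and 10.77 on the Y3 arrays. On the N4 plus corticosteroid arrays it was 11.55, 10.57 and 9.96, and on the N4 arrays 11.54, 10.91 and 10.18. Replicate 3 was the highest of its group for 34 of 35 members in Y3 plus corticosteroid, where it was for 32.1% of the 15768 genes above the background line in a group. Replicate 2 was the lowest for 34 of 35 in Y3 (31.7% of those genes). Replicate 1 was the highest for 35 of 35 in N4 plus corticosteroid (40.1%) and for 33 of 35 in N4 (39.0%), and replicate 3 the lowest for 32 (38.3%) and 31 (41.5%). The replicate numbers are labels, so these counts describe which arrays were high and low, not a trend.

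**Figure D3:**
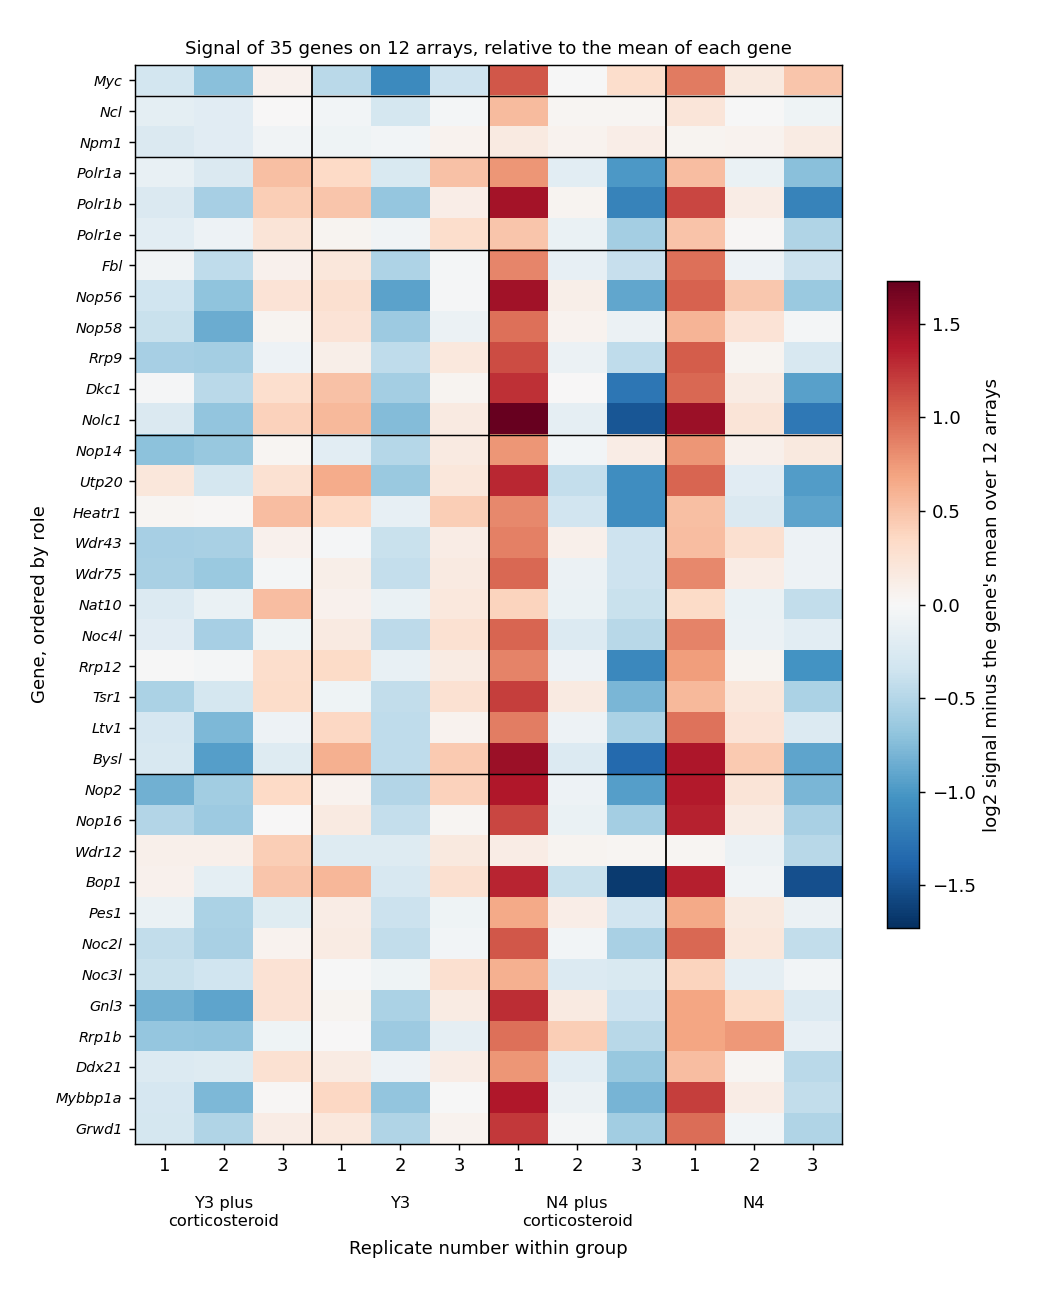
log2 signal of the 35 members (rows, grouped by role) on the 12 arrays (columns, by group and replicate number), each relative to the gene's own mean, with red above and blue below that mean. The Y3 groups hold paler colours, with their lowest values mostly on replicate 2, while in both N4 groups replicate 1 is red and replicate 3 blue for most members.

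The direction of the peptide difference depended on which pair of arrays was read. For Y3 minus N4 without corticosteroid, 35 of 35 members were lower under number 1 (median -0.64) and 32 of 35 under number 2 (median -0.55), whereas 5 of 35 were lower under number 3 (median 0.57). With corticosteroid the counts were 35, 28 and 4, with medians of -1.34, -0.49 and 0.62. Genes above the background line had medians of -0.04, -0.02 and 0.04 in the pairs without corticosteroid. Myc, Npm1, Nop58, Nop14 and Rrp1b were the 5 members lower in Y3 under all 3 numbers without corticosteroid, and Myc, Ncl, Npm1 and Nop14 the 4 with it. Among genes above the background line, 20.7% and 23.7% were lower under all 3 numbers, so these counts were not above that share. In the fit without the block, the median of the members was -0.21 without and -0.38 with corticosteroid. It went to 0.13 without N4 replicate 1 and to 0.10 without N4 plus corticosteroid replicate 1. In the blocked fit both medians stayed negative whichever array was left out, at -0.05 and -0.07 without those same arrays.

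**Figure D4:**
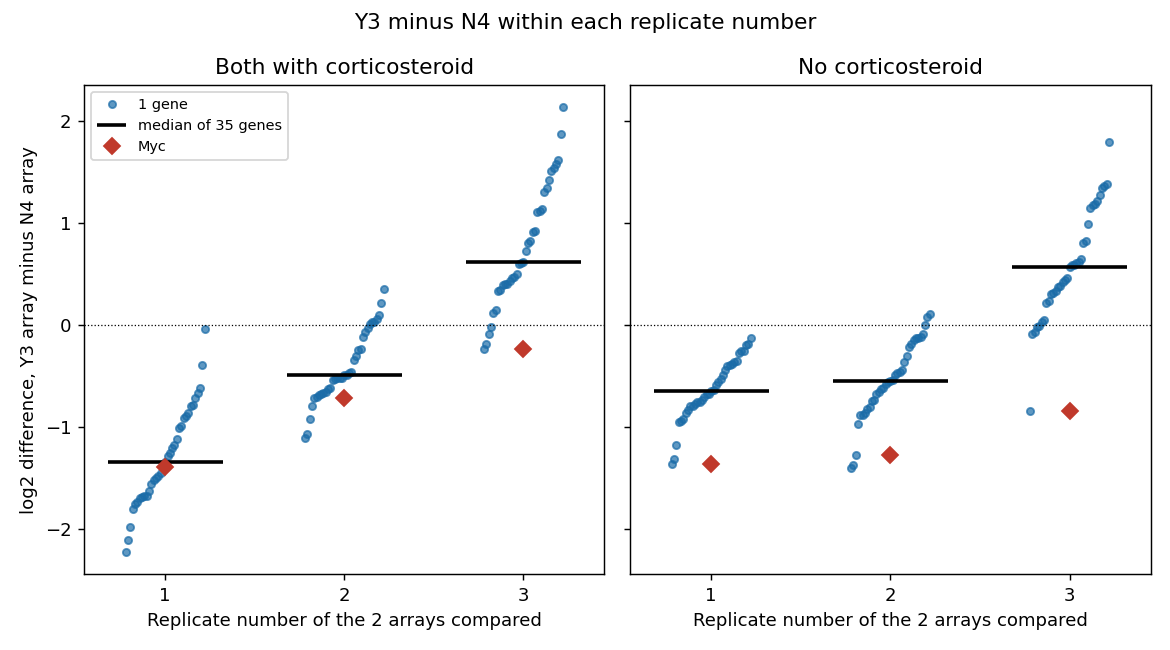
log2 difference between the Y3 and the N4 array of a replicate number (vertical axis), for 35 members as dots sorted by value, with corticosteroid in both arrays (left) and in neither (right); black lines give the medians and diamonds mark Myc. The medians are -1.34, -0.49 and 0.62 with corticosteroid and -0.64, -0.55 and 0.57 without it, and Myc lies below 0 under every number.

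The sum of squares of each member was split by source, and the median of each share was taken over the members on its own. These medians were 44.0% for the interplay of peptide and replicate number and 31.1% for the replicate number. They were 9.30% for the peptide and 2.59% for the steroid and its interplay with the peptide, and do not describe any single member. For genes above background the same medians were 14.1%, 41.4%, 15.6% and 4.87%. The peptide held the largest share for 6 of the 35 members. It reached 62.6% for Myc, 62.1% for Npm1, 46.9% for Nop14 and 43.5% for Rrp1b, but 0.271% for Dkc1 and 1.02% for Nolc1. The median standard deviation of a member was 0.35 in Y3 plus corticosteroid and 0.34 in Y3, against 0.82 in N4 plus corticosteroid and 0.59 in N4. The medians of the negative controls moved as well: they were 5.75, 5.77 and 6.07 on the Y3 arrays, highest on replicate 3, and 5.58, 5.74 and 5.95 on the N4 arrays, lowest where the members were highest. The median of the T cell markers was 15.20, 15.65 and 15.50 on the Y3 arrays and 14.57, 15.16 and 15.05 on the N4 arrays. Their part in this pattern was not tested either.

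The corticosteroid moved no member past the threshold. In Y3-primed cells 31 of 35 members had lower means with corticosteroid, with a median of -0.15, and 13 were lower under all 3 numbers. By number, 33, 21 and 13 of 35 were lower, with medians of -0.50, -0.06 and 0.07, so number 3 ran the other way. In the fit without the block the median stayed negative whichever array was left out, from -0.37 to -0.030. In the blocked fit it went to 0.18 (7 lower) without Y3 plus corticosteroid replicate 1, and to 0.08 (14 lower) without Y3 replicate 3. With limma, 0 of 35 passed (0% of all genes) and 0 had an unadjusted p under 0.05 (3.19% of all genes). Among genes above the background line 55.5% had lower means and 25.1% were lower under all 3 numbers. In N4-primed cells 25 of 35 had lower means, with a median of -0.06, and 0 of 35 passed (0% of all genes, or 0.00253% with the replicate block) or had an unadjusted p under 0.05 (1.9%). Under number 1, 5 of 35 were lower in N4 plus corticosteroid, against 32 and 31 under numbers 2 and 3. The difference between the steroid effects had a median of -0.11, and 0 of 35 passed (0%) or had an unadjusted p under 0.05 (1.71%). By number its medians were -0.64, 0.10 and 0.22. With 1 array left out of the fit without the block, it ran from -0.50 to 0.31. It lay above 0 without N4 replicate 3, N4 plus corticosteroid replicate 1 or Y3 plus corticosteroid replicate 2.

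Other genes of the pathway were less spread over the arrays. They were listed from general knowledge of ribosome assembly, but with earlier results of these data known, and were summarised together after seeing the data. Of 108 genes of RNA polymerase I, snoRNPs, the small subunit processome and 60S assembly, 85 had lower means in Y3 than in N4 (median -0.18) and 93 with corticosteroid in both (median -0.32). Over all genes 50.7% and 52.0% were lower. Without the block 0 and 1 of the 108 passed, and with it 3 and 9, of which 8 were lower, where 2.94% and 6.53% of all genes passed with the block. These counts are near the share of all genes. All 108 lay above the background line in a group, where genes passed more often. Of those 15768 genes, 596 rose and 455 fell with the block in Y3 against N4, and 1211 rose and 1107 fell with corticosteroid in both. The counts of the 108 were below that share. As for the members, the pair medians turned under number 3: they were -0.48, -0.30 and 0.25 without corticosteroid and -0.89, -0.31 and 0.24 with it. The median of the 108 without corticosteroid went to 0.00152 without N4 replicate 1.

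Nob1, the endonuclease that makes the final cut of the small subunit RNA, averaged 9.29 in Y3 plus corticosteroid against 9.88 in N4 plus corticosteroid, a drop of -0.59 ± 0.09 that passed without the block (limma adjusted p = 0.0427) and with it (0.00347). It fell without corticosteroid too, with the block only (-0.39 ± 0.07, adjusted p = 0.0285). Polr1c, a subunit shared by RNA polymerases I and III, fell in both comparisons with the block (-0.51 ± 0.08, adjusted p = 0.0132, and -0.59 ± 0.08, adjusted p = 0.00448). Ruvbl2, an ATPase of snoRNP assembly, fell by 1.06 on the log2 scale without corticosteroid (adjusted p = 0.0245 with the block) and by 1.01 with it (0.0182). Nufip1, Utp11l, Dnttip2, Rpf2 and Sdad1 fell with the block when both cultures had corticosteroid, and Nvl, an ATPase of 60S assembly, rose (1.04 ± 0.25, adjusted p = 0.0400).

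The ribosomal protein genes varied little between arrays. The median of 76 genes ran from 11.73 to 12.03 over the 12 arrays, a range of 0.30, against 1.59 for the members. The median difference was 0.01 in Y3 against N4 (34 of 76 lower) and -0.06 with corticosteroid in both (58 of 76 lower). With the block, Rps2 alone fell, in the second of these (-0.34 ± 0.08, adjusted p = 0.0382). In Y3-primed cells 72 of 76 had lower means with corticosteroid, by a median of -0.05.

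**Figure D5:**
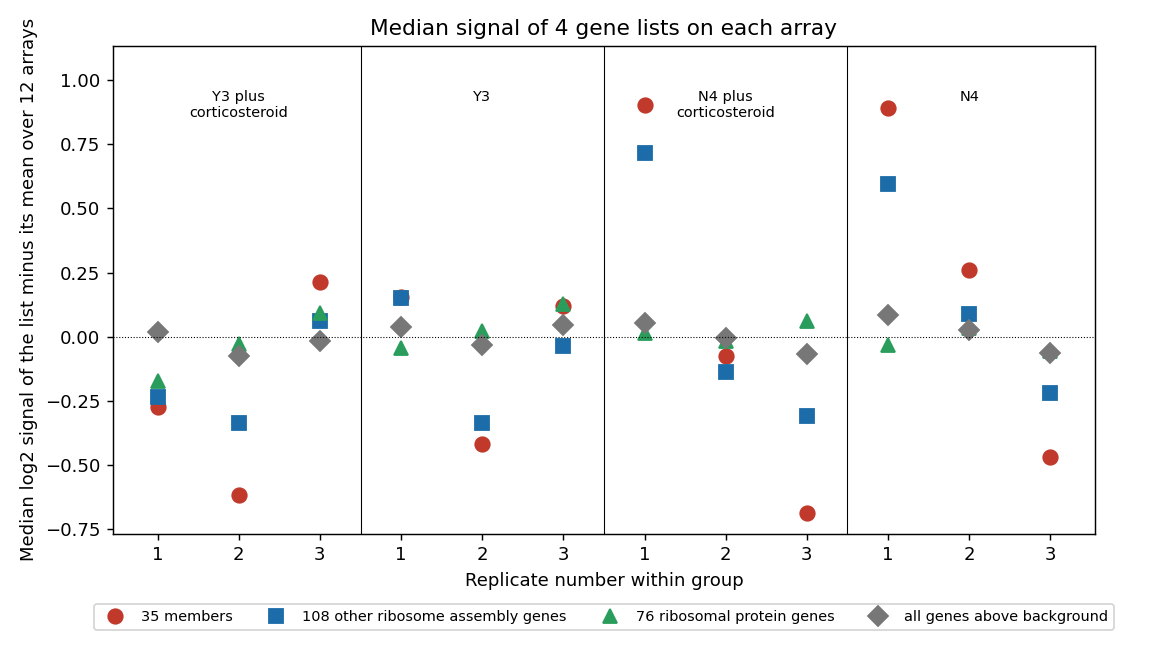
Median log2 signal of 4 gene lists on each array, relative to the list's mean over the 12 arrays (vertical axis), by group and replicate number (horizontal axis). The 35 members and 108 other assembly genes lie highest on replicate 1 of both N4 groups and lowest on replicate 3 of those groups or replicate 2 of the Y3 groups, whereas 76 ribosomal protein genes stay within a range of 0.30.

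Some partners and antagonists of Myc were higher in Y3-primed cells, and others had lower means. Myc binds DNA as a dimer with Max, and proteins of the Mxd family and Mnt compete for Max and repress. Of 13 genes of this network, 10 lay above the background line in a group, and 0 of 13 passed without the block (limma; 3 and 4 had an unadjusted p under 0.05 without and with corticosteroid). Without corticosteroid 4 of 13 had lower means in Y3 (median 0.03, lowest -0.46). With corticosteroid in both, 5 of 13 did (median 0.27, lowest -0.58). With the block, 2 rose in Y3 against N4 and 4 with corticosteroid in both, and 0 passed as lower. Of all genes, 2.94% and 6.53% passed in either direction. Mxd4 averaged 11.31 in Y3 plus corticosteroid and 10.54 in Y3, against 9.12 in N4 plus corticosteroid and 8.71 in N4. It rose by 2.19 ± 0.28 (adjusted p = 0.00350 with the block) and 1.83 ± 0.28 (0.0123) in Y3. Mlxip, a partner of the Max-like protein Mlx, rose by 1.06 ± 0.13 and 0.76 ± 0.13 in Y3. Max itself rose by 0.55 ± 0.14 and Mnt by 0.36 ± 0.07 where both cultures had corticosteroid.

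Of 20 known Myc targets outside the ribosome, 19 had lower means in Y3 than in N4 in each peptide comparison. This list too was chosen with earlier results of these data known. Of all genes 50.7% and 52.0% did. The medians of the 20 were -0.35 without and -0.49 with corticosteroid. With the block, 0 passed without corticosteroid (2.94% of all genes) and 4 fell with it (6.53%). These were Odc1, which starts polyamine synthesis (-1.44 ± 0.32, adjusted p = 0.0311), the glycolytic enzyme gene Ldha (-0.61 ± 0.09, 0.00560), the cap-binding factor gene Eif4e (-0.73 ± 0.18, 0.0411) and C1qbp (-0.71 ± 0.15, 0.0272). The pair medians were -0.65, -0.67 and -0.02 without corticosteroid and -1.06, -0.64 and 0.22 with it.

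Of the printed E-box sites, that of Nop2 lies 60 to 55 bases before the start, and the other 7 begin between base 3 and base 41 of the transcribed strand. The 8 members with the E-box had a median difference of -0.30 in Y3 against N4 (7 lower) and -0.45 with corticosteroid in both, against -0.17 (15 of 22 lower) and -0.35 for the 22 members with a window but no site. The ranges overlapped, from -0.41 to 0.12 and from -0.69 to 0.42 without corticosteroid. Nop14 and Rrp1b, among the members with the lowest values in Y3, held no such site in their windows. A match describes letters in a window and does not show binding in these cells.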

How the data were processed

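RNA of 12 OT-I samples was hybridised to MTA-1_0 arrays. The authors deposited gene-level signals as linear intensity values, with RMA named in the submitters' processing notes; log2 was taken here, and the design had assumed values already on the log2 scale. The genome build of the array annotation is not given in the sources used here. Column codes were read as N4 or Y3 with S for corticosteroid, and deposited columns named by sample held identical values. Of 72688 features, 65956 were transcript clusters, and 40122 with 1 symbol gave 39462 genes, the brightest cluster standing for a gene. No further normalization was applied. A linear model over all 12 arrays was fitted with limma 3.58.1 in R 4.3.3, with Benjamini-Hochberg adjustment over all genes and a threshold of 0.05. Only the fit without the block was tried on simulated data, with noise independent between arrays, so that trial does not bear on the blocked calls. Signal over the background controls, and 3 arrays per group, limit the precision.

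Arrays of one replicate number deviated together from their group means in all 18 pairs (r 0.114 to 0.815), and blocked values therefore stand beside the results. The 36 pairs of different numbers ran from -0.704 to 0.481 (median -0.21). Deviations of the 3 arrays of a group cancel out, so that negative median follows from the positive values and is no separate evidence of pairing. Across peptides the pairing was weaker for some arrays and did not hold for N4 number 3. N4 replicate 3 had r = 0.419 with Y3 replicate 3 and 0.423 with Y3 replicate 2. With Y3 plus corticosteroid it had 0.219 for replicate 3 and 0.409 for replicate 2. N4 plus corticosteroid replicate 3 had 0.423 with Y3 replicate 3 and 0.481 with Y3 replicate 2. With Y3 plus corticosteroid its values were 0.255 and 0.402 in the same order. The blocked peptide calls, that of Myc included, rest on this pairing. Myc and, per comparison, the 4 members with the smallest unadjusted p were given array by array, other members by role with examples; of each further list, genes past the threshold were named. Members and gene lists were chosen with earlier results of these data known. Of 320 list genes outside the members 316 were matched, 5 through RefSeq synonyms. Alternatives were the block, other centring and normalization, removal of dim genes, the groups compared alone, the series matrix values, the mean over clusters and each array left out. The blocked fit with each array left out, the stricter background line and the summary of the 108 other assembly genes were added after seeing the data.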

Additional observations from a re-analysis of the deposited data

How the results depend on the processing

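Pairing the arrays by the replicate block changed the calls most: genes past the threshold came to 1160 in Y3 against N4, where 12 passed without it, to 2576 with corticosteroid in both, where 101 passed, and to 1 for the steroid in N4-primed cells, where 0 passed. It added 1 member, Myc, to both peptide comparisons and changed no other call on a member. In Y3 against N4, removing dim genes gave 22 genes. Fitting only the groups compared, where fewer arrays and other groups set the spread, gave 0. With corticosteroid in both, median centring gave 65 genes and only the groups compared gave 0. Leaving out 1 array at a time gave 0 to 26 genes in Y3 against N4 and 0 to 205 with corticosteroid, or 243 to 1341 and 847 to 2705 with the block. The blocked Myc difference with corticosteroid ran from -0.96 to -0.57 (adjusted p 0.0234 to 0.138). The members' median for the steroid in N4-primed cells ran from -0.49, without N4 plus corticosteroid replicate 1, to 0.28, without N4 replicate 1. For that comparison Myc ran from -0.37 to 0.17 and turned to 0.13 without N4 replicate 1 and to 0.17 and 0.013 without N4 plus corticosteroid replicates 2 and 3. Ltv1 ran from -0.63 to 0.083 and Bysl from -1.11 to 0.30; they turned to 0.080 and 0.19 without N4 replicate 1, and to 0.083 and 0.30 without N4 plus corticosteroid replicate 3. Ncl ran from -0.010 to 0.25, and the difference between its steroid effects from -0.24 to 0.018, and each turned only without N4 plus corticosteroid replicate 1. The cause of these shifts was not tested. Other normalization and the mean over clusters left each member's call and direction as reported, but that mean cannot change a gene with a single cluster. The series matrix values were identical to those used, so the fit on them could not differ.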

Other observations

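Groups near the ribosome pathway had a few members that passed only with the replicate block. With it, 2.94% of all genes passed in Y3 against N4 and 6.53% with corticosteroid in both. Lower means in Y3 were found for 50.7% and 52.0% of all genes in the same order. The 1 of 16 genes of nucleotide synthesis and 1 of 21 of RNA polymerase III that passed are near the shares called. Of 12 genes of the RNA exosome, which trims ribosomal RNA precursors, 10 had lower means in Y3 than in N4 and 11 with corticosteroid in both. Their pair medians were -0.35, -0.44 and 0.32 without corticosteroid and -0.73, -0.49 and 0.44 with it, so number 3 ran the other way. Exosc6 (-0.97 ± 0.17, limma adjusted p = 0.0134) and the nuclease gene Exosc10 (-0.50 ± 0.12, 0.0412) fell in Y3 plus corticosteroid against N4 plus corticosteroid. Of 16 genes of nucleotide synthesis, 15 and 13 had lower means in Y3 (medians -0.30 without and -0.17 with corticosteroid). Their pair medians also turned under number 3: -0.49, -0.80 and 0.23 without corticosteroid and -0.76, -0.46 and 0.53 with it. Impdh2, an enzyme of guanine nucleotide synthesis, fell with corticosteroid in both (-0.62 ± 0.15, 0.0420). Of 21 genes of RNA polymerase III, which makes the small 5S ribosomal RNA and transfer RNAs, Brf1 alone passed, higher in Y3 than in N4 (0.43 ± 0.10, 0.0499).

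Nr3c1, the glucocorticoid receptor gene, averaged 10.02 ± 0.21 in Y3 plus corticosteroid and 10.02 ± 0.19 in Y3, against 9.38 ± 0.49 in N4 plus corticosteroid and 9.46 ± 0.43 in N4 (SD, n = 3 each). It differed between the peptides by 0.64 with corticosteroid (limma adjusted p = 0.0471 with the block, 0.390 without it), and by 0.57 without corticosteroid (0.103 with the block).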
